A study of Mus musculus with 4 samples.

Results

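Distal open chromatin regions were examined in a pair of joint 10x multiome libraries, which count RNA and cuts by a transposase, a mark of open chromatin, in the same nuclei. A far region was an autosomal peak whose midpoint lay more than 100 kb from every gene interval listed in the same library's feature table, and which overlapped a peak of the other library by at least 1 base. Of 95503 regions shared by both libraries after overlapping peaks were merged, 6152 were far by this rule. Far peaks with an overlap numbered 6179 in the library labelled Control and 6180 in the library labelled CKO, of which 3 in each fell in merged regions with a nearer peak and were left out. A further 23413 shared regions were promoter-proximal, with every peak within 1 kb of a gene interval, and 65938 lay in between. The rule used position and the presence of a peak in both libraries. It used no cell class, but the need for a peak in both depends on the counts of each library.

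The cells were GFP+ AT2 cells sorted from the lungs of male mice 8 days after bleomycin, which damages the gas exchange surface. Control mice carried SftpcCreERT2, a tamoxifen-inducible Cre driven by the surfactant protein C gene, and Rosa26mTmG, a membrane reporter that turns green after recombination. The CKO mice carried both of these and IPF/F, a floxed allele. Both groups were injured, and neither was sampled uninjured here. IP is the usual name of the prostaglandin I2 receptor, whose gene is Ptgir. Ptgir could not check the genotype, with 2 UMIs (counted RNA molecules) over all deposited Control barcodes and 10 over those labelled CKO. Each genotype is 1 joint library, and the labels do not say how many mice were pooled. No difference below therefore has a replicate check, none was tested, and every interval given is a 95% interval for counting error alone, outside which lie amplification duplicates and differences between mice. Where 2 values are given without a library, the first is from the library labelled Control and the second from that labelled CKO.

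Distal elements such as enhancers are stretches of open chromatin that bind transcription factors and can act on a promoter over long distances, often past genes in between. Promoters of many genes are open in most cell types, whereas distal elements are known to be open more often in particular cell types. Genes of developmental transcription factors often lie in long gene-poor stretches. AT2 cells make surfactant and give rise, through a transitional state, to the flat alveolar type 1 (AT1) cells of the gas exchange surface.

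Promoters of genes beside far regions are shown because their class pattern is set against that of the far regions further on. For each class the first of the named far regions was taken whose flanking gene has a RefSeq promoter entry and a shared promoter-proximal region over its start. One transcription factor gene, Tfcp2l1, was added as the listed factor with most nearest far regions among those meeting the same condition. The 250 bases before the start are printed 5′ to 3′ from RefSeq (GRCm38.p6), with capitals for matches on either strand to GGGCGG (a GC box), to the CCAAT box, to the letters TATAAA of a TATA box and to TGANTCA (an AP-1 motif). Sequences of the far regions themselves were not used here.
Atrnl1, chr19:57610784-57611033, plus strand: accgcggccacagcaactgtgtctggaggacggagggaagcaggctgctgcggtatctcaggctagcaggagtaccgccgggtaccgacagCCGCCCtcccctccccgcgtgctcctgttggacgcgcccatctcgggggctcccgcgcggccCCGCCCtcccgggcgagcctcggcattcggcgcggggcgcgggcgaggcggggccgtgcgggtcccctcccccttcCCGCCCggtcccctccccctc
Adamts3, chr5:89883335-89883584, minus strand: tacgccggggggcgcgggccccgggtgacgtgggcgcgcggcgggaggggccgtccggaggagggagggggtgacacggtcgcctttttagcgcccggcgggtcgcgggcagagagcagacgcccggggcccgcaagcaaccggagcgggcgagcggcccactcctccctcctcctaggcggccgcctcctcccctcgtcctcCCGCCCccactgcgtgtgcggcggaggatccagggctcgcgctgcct
Ell2, chr13:75707234-75707483, plus strand: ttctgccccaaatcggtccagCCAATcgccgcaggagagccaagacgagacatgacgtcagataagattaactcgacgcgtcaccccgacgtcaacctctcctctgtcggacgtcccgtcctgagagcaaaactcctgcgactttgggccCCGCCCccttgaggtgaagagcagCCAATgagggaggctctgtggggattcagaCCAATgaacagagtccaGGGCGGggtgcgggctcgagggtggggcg
Tfcp2l1, chr1:118627695-118627944, plus strand: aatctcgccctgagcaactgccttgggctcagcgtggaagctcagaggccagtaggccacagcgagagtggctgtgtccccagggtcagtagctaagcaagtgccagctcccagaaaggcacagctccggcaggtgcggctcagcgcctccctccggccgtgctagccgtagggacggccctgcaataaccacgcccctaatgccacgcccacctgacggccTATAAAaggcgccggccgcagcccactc
No match overlapped another. GGGCGG occurred 3 times in Atrnl1, 1 time in Adamts3 and 2 times in Ell2, and in 32.7% of 32851 RefSeq promoter windows of this length. CCAAT occurred 3 times in Ell2, and in 33.8% of windows. TATAAA occurred 1 time in Tfcp2l1, and in 12.4%. TGANTCA occurred in 0 of the 4, and in 6.75% of windows. The GC content of these 4 windows was 76.4%, 78.0%, 61.2% and 65.2% in the order printed.

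The distance held for the gene set of the files and not for every annotated gene. The median far region lay 153 kb from the nearest gene interval, 1880 lay over 200 kb away, 210 over 500 kb and 8 over 1000 kb. Just inside the limit, 836 regions lay at 100 to 110 kb, and just outside it 1070 lay at 90 to 100 kb. In the RefSeq gene table of the same build, GRCm38, 3270 far regions (53.2%) lay inside the extent of a gene, and 2787 (45.3%) inside one of 627 protein-coding genes. These lay within gene bodies and far from the gene intervals of the files, though not always from other RefSeq starts. RefSeq also lists genes and gene models outside the files' set. Counting those, 4392 far regions (71.4%) lay within 100 kb of a RefSeq start and 199 within 1 kb of one, and 743 were both outside every extent and over 100 kb from every start. For genes with no promoter entry both ends of the extent were taken as possible starts, so the share of 71.4% is at the upper side. For the far regions named singly below, the nearest RefSeq start so counted was 0.257 kb to 206 kb away. Exon structure was not used here. On chromosome 18, 14.2% of shared regions were far, against 4.13% to 8.55% on each of the other autosomes. These 460 regions were counted throughout and are not named.

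The libraries held 13569 and 10925 barcodes, with 47307986 and 37365247 peak counts, and 193 barcode sequences occurred in both. Barcodes at or over the limit on the mitochondrial share of RNA numbered 8407 and 4365, so this limit fell unequally on the libraries. All filters together left 2179 and 3883 nuclei, which were classed by RNA. Results under the main setting thus describe a selected minority of the barcodes, the smaller part in the control library. AT2-like nuclei numbered 1481 and 1270, transitional-like nuclei 574 and 1057, and leukocyte-like nuclei 103 and 1316. The AT2-like nuclei of the libraries fell into different clusters. Clusters 2 and 3 held 702 and 652 of those of the control library, and cluster 0 held 1205 of those of the library labelled CKO. Cluster 2, the shallow AT2-like cluster below, had a median of 1174 UMIs and held 55 nuclei of the library labelled CKO. Clusters 2 and 3 had no AT2 marker among their leading genes, and cluster 0 had 2. Lamp3, a lamellar body gene of AT2 cells, had 1035 and 1539 CPM (UMIs per 1000000 nuclear-encoded UMIs of the class) in AT2-like nuclei, 254 and 411 in transitional-like and 592 and 520 in leukocyte-like nuclei. Krt8, a keratin of the transitional state, had 264 and 287 CPM in AT2-like nuclei and 256 and 425 in transitional-like nuclei, so in the control library it did not set the classes apart. One of the 2 transitional-like clusters scored 1.33 on the transitional list and 1.28 on the AT1 list. Ptprc, the pan-leukocyte gene CD45, had 1058 and 1074 CPM in leukocyte-like nuclei and at most 34.5 in the other classes compared. Leukocyte-like nuclei were mostly T and NK-like in the control library (60 of 103) and mixed in the other, where 484 of 1316 were neutrophil-like, 351 T and NK-like and 329 macrophage and monocyte-like. A class called leukocyte-like below thus has a different makeup in each library, and its depth in the control library is low. Sftpc, the surfactant protein C gene, had 57.1 and 56 CPM in leukocyte-like nuclei, beside 101 and 193 in AT2-like nuclei. The part of RNA or chromatin from other cells in the class differences below was not tested.

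Far regions were shared between libraries less often than other peaks. Of 8091 far control peaks 76.4% overlapped a peak of the library labelled CKO, and of 8502 far peaks of that library 72.7% overlapped a control peak. The shares were 90.5% and 86.1% for promoter-proximal peaks and 84.9% and 78.2% for all autosomal peaks. Far regions were as wide as the others, with a median of 891 and 890 bases against 883 in both libraries for promoter-proximal regions. They held fewer fragments (pairs of transposition events, estimated as the count of a peak in a nucleus divided by 2 and rounded up). A far region held a median of 11 and 23 fragments over the 3 classes, and the highest held 674 and 942. Promoter-proximal regions held a median of 69 and 109. The 62 far regions with most fragments held 10.6% and 8.40% of all far fragments. No fragment from a leukocyte-like nucleus was counted in 65.2% and 4.01% of far regions.

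Far regions took a larger share of open chromatin in epithelial nuclei than in leukocytes. In AT2-like nuclei 2.70% (95% Clopper-Pearson interval 2.69% to 2.71%) of counts in shared autosomal regions fell in far regions for Control, and 3.02% (3.01% to 3.03%) for CKO. In transitional-like nuclei the shares were 2.80% and 2.91%. In leukocyte-like nuclei they were 1.68% (1.64% to 1.71%) and 1.94% (1.93% to 1.96%). Both epithelial classes thus lay above the leukocyte class in both libraries. Within leukocytes, T and NK-like nuclei had 1.34% and 1.66%, B-like nuclei (13 and 61 in number) 1.41% and 1.61%, and macrophage and monocyte-like nuclei had 2.28% and 2.09%. The higher share was not particular to the alveolar epithelium. Ciliated-like nuclei, 3 and 57 in number, had 3.04% and 2.76%, and fibroblast and smooth muscle-like nuclei, 7 and 56 in number, had 2.68% and 2.65%. Endothelial-like nuclei had 2.63% (11 nuclei) and 1.89% (127 nuclei). Promoter-proximal regions showed the reverse order, with 56.6% and 51.3% of counts in AT2-like nuclei, 56.2% and 52.0% in transitional-like and 65.3% and 58.9% in leukocyte-like nuclei. Peaks were listed per library, and in the control library 1481 of 2179 kept nuclei were AT2-like and 574 transitional-like. Whether the choice of peaks by the abundant classes moved these shares was not tested. The intervals treat counts as independent, though 81.6% and 84.6% of the counts per nucleus and peak were even. Where both ends of a fragment were counted, such intervals are too narrow. By fragments the AT2-like shares were 2.67% and 2.99%, outside their intervals.

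**Figure D1:**
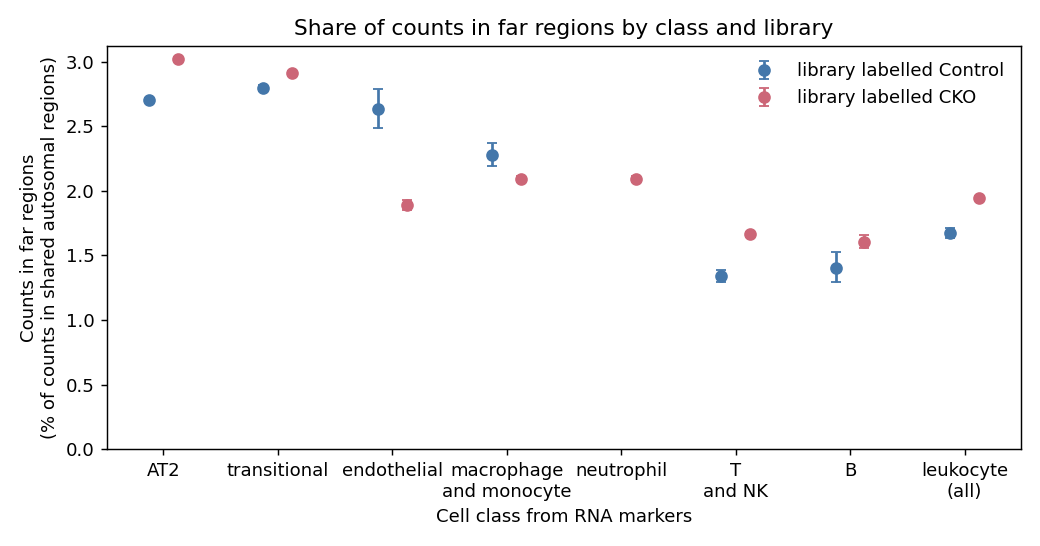
Percent of counts in shared autosomal regions that fell in far regions (vertical axis), for each cell class from RNA markers (horizontal axis) in the library labelled Control (blue) and the library labelled CKO (red). Bars are 95% Clopper-Pearson intervals that treat counts as independent. The dendritic, ciliated and fibroblast classes and the 1 Control neutrophil-like nucleus are not drawn, and AT2-like nuclei sit at 2.70% and 3.02% against 1.68% and 1.94% for all leukocyte-like nuclei.

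Among regions past a depth minimum, far regions reached 2-fold the mean rate of the other classes more often than promoter-proximal ones. These far calls were mostly for AT2-like or transitional-like nuclei. A region was called for a class where its rate there was at least 2-fold the mean rate of the other classes in each library apart, with at least 20 fragments in each library. Of the 6152 far regions 1803 had this depth, and of the 23413 promoter-proximal regions 17044. The minimum was summed over the classes, which in the control library held 3641816 AT2-like, 1253588 transitional-like and 237330 leukocyte-like fragments. A region open mainly in leukocyte-like nuclei thus had few control fragments with which to pass. The part of this selection in the shares called was not tested. Of these, 333 (18.5%) were called for AT2-like nuclei, compared with 8.32% of all shared regions and 3.26% of promoter-proximal regions. For transitional-like nuclei 174 far regions (9.65%) were called, beside 5.62% of all shared and 2.56% of promoter-proximal regions. For leukocyte-like nuclei 20 far regions (1.11%) were called, beside 2.30% of all shared and 1.92% of promoter-proximal regions. With so few control leukocyte-like fragments, this share cannot say how often far regions are open mainly in leukocyte-like nuclei. In the library labelled CKO alone, where the control minimum did not apply, far shares for leukocyte types lay near those of all shared regions, as given below. Altogether 527 far regions (29.2%) were called for 1 of the classes, and 7.74% of promoter-proximal regions. The rest of the far regions past the minimum did not reach 2-fold over that mean in both libraries for any class. With 2 other classes, a region nearly closed in leukocyte-like nuclei can be called for 1 epithelial class at a rate close to the other's. Such calls set epithelium apart from leukocytes, and their number was not counted. Over all depths, 65.2% of far and 25.9% of promoter-proximal regions had no leukocyte-like fragment in the control library. The counts depended on the settings. With the 6 called doublets kept, where an AT1-like class was named apart, 53 far regions (2.94%) were called for transitional-like nuclei, and 0.927% of promoter-proximal regions. At a minimum of 50 fragments 124 (20.3%) were called for AT2-like, 32 (5.25%) for transitional-like and 2 (0.328%) for leukocyte-like nuclei. The promoter-proximal shares were then 1.95%, 0.771% and 0.764%. At a Leiden resolution of 1.0 the AT2-like count was 195 (10.9%), beside 1.81% of promoter-proximal regions. With no limit on the mitochondrial share of RNA, which kept more nuclei, the far counts were 534, 602 and 214 for AT2-like, transitional-like and leukocyte-like nuclei. As more regions then passed the minimum, these were 10.3%, 11.6% and 4.11% of far regions. The AT2-like share thus fell, and lay below the transitional-like one. Of promoter-proximal regions 2.18%, 3.47% and 4.97% were called in the same order.

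The difference was also seen at matched depth, though depth was again summed over the classes, with the same selection. Among regions with 80 to 159 fragments in the library where they had fewer, 23.3% of 223 far regions were called for AT2-like nuclei, compared with 8.23% of 8302 shared regions and 2.90% of 3867 promoter-proximal regions. For transitional-like nuclei the shares in this range were 4.04%, 2.47% and 1.06%. For leukocyte-like nuclei 0 of the 223 far regions were called, and 0.957% of the promoter-proximal regions. Among regions with 20 to 39 fragments the AT2-like shares were 16.9% of 977 far and 7.43% of 3109 promoter-proximal regions, and the transitional-like shares 12.6% and 8.91%.

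**Figure D2:**
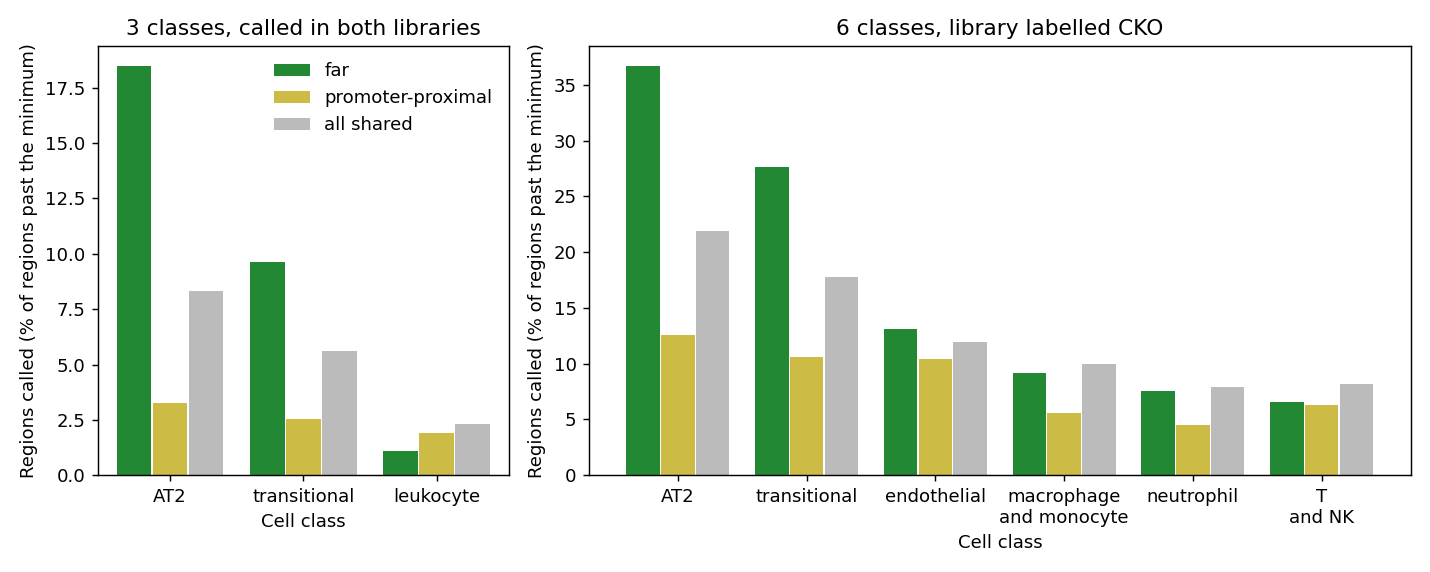
Percent of regions past the depth minimum that were called for a class (vertical axes), for far, promoter-proximal and all shared regions, with 3 classes called in both libraries (left) and 6 classes in the library labelled CKO (right). The vertical scales of the panels differ, and far bars reach 18.5% for AT2-like nuclei on the left and 36.7% on the right.

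The leukocyte types had enough nuclei to be kept apart in the library labelled CKO. There 3594 far regions held at least 20 fragments over 6 classes. Rates at least 2-fold the mean of the other 5 classes were found for AT2-like nuclei in 36.7% of far regions (21.9% of all shared regions), and for transitional-like nuclei in 27.7% (17.8%). Endothelial-like nuclei had 13.1% (12.0%). For macrophage and monocyte-like nuclei the share was 9.15% (9.96%), for neutrophil-like nuclei 7.60% (7.90%) and for T and NK-like nuclei 6.57% (8.19%). The leukocyte and endothelial shares lay near those of all shared regions, and the 2 epithelial shares lay above them. Counts of this kind came from 1 library only and had no second library to repeat them.

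The class with the highest rate was the same in both libraries for 1201 of 1803 far regions (66.6%), for 62.0% of promoter-proximal regions and for 62.7% of all shared regions. Agreement depended on the class. Of 880 far regions highest in AT2-like nuclei of the control library, 703 (79.9%) were highest there in the library labelled CKO too. The same held for 437 of 697 regions (62.7%) highest in transitional-like nuclei and for 61 of 226 (27%) highest in leukocyte-like nuclei. The shares of all these far regions highest in each class of the library labelled CKO, whatever their class in the other, were 58.2%, 35.5% and 6.32%. Promoter-proximal regions had the same class again in 54.6%, 46.5% and 75.9%, beside 28.9%, 24.1% and 47.0% of all of them.

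Cell class specificity was also measured without a call, as the chance that 2 fragments drawn from equally weighted classes come from the same class, with a ratio whose numerator and denominator are each free of depth in expectation. An even region has 0.333 with 3 classes. The median far region had 0.413 and 0.377, compared with 0.340 and 0.344 for promoter-proximal regions. A median of this ratio can still vary with depth. Control medians of both kinds were highest at 20 to 39 fragments, and far regions were shallower, so these overall medians compare unlike depths. Among regions with 160 to 319 fragments the medians were 0.391 and 0.381 for far regions (54 and 104 in number) and 0.336 and 0.339 for promoter-proximal regions. Among regions with 20 to 39 fragments far and promoter-proximal medians were 0.474 and 0.400 for Control, and 0.372 and 0.363 for CKO. With 6 classes in the library labelled CKO, where an even region has 0.167, the medians were 0.214 for far and 0.176 for promoter-proximal regions. Regions between these distances had 0.379 and 0.363 with 3 classes, within the range set by far and promoter-proximal regions.

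**Figure D3:**
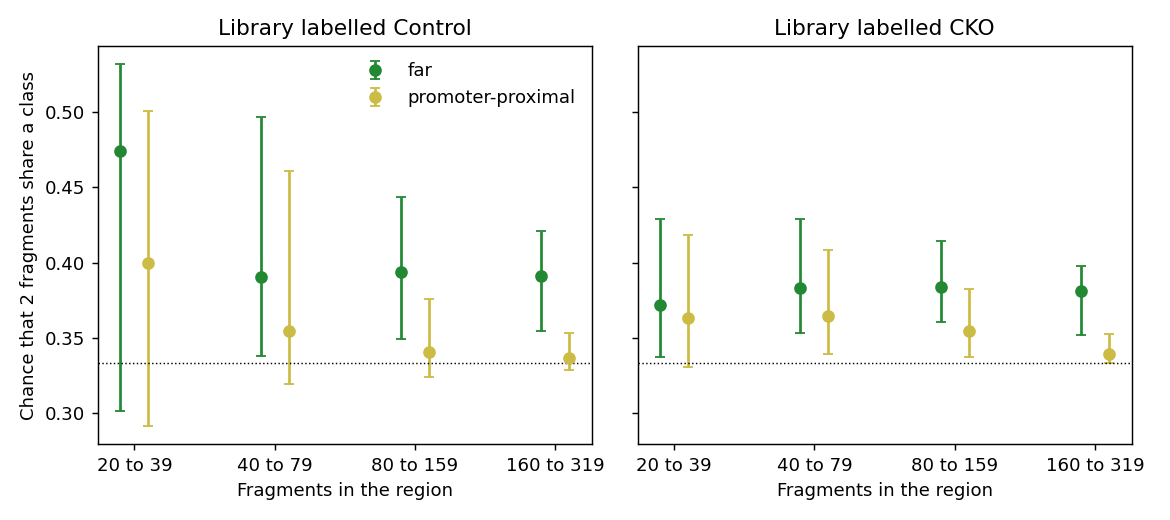
Chance that 2 fragments from equally weighted classes share a class (vertical axis) by fragments in the region (horizontal axis), for far (green) and promoter-proximal (yellow) regions in each library. Points are medians, bars run from the lower to the upper quartile over regions, the dotted line is an even region (0.333), and far medians lie above promoter-proximal ones in all 4 ranges of both libraries.

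The AT2-like share differed by distance without a steady order. It was 17.3% of 939 regions at 100 to 150 kb, 14.5% of 386 at 150 to 200 kb, 23.0% of 426 at 200 to 500 kb and 32.7% of 52 (17 regions) over 500 kb. The transitional-like shares were 8.63%, 11.1%, 10.3% and 11.5%. Where a far region lay inside a protein-coding gene body, 16.5% of 880 were called for AT2-like nuclei, and outside every RefSeq extent 21.4% of 761. The regions that were also over 100 kb from every RefSeq start and outside every extent had 21.9% of 196 for AT2-like and 13.3% for transitional-like nuclei, and 0 for leukocyte-like nuclei. Promoter-proximal regions by the files' gene set that were over 100 kb from every RefSeq start had 18.5% and 13.0%. Whether these lay inside a RefSeq extent was not looked up. Far regions chosen by that start distance alone had 21.1% of 479 and 12.1%, so these 2 sets were not far apart. Among the 76 regions past the minimum within 1 kb of a RefSeq start, 15 were called for AT2-like, 2 for transitional-like and 4 for leukocyte-like nuclei. The AT2-like share lay between 16.5% and 21.9% in these subsets by RefSeq, beside 18.5% of the whole set.

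The strongest AT2-like far regions were taken by the smaller of the ratios in the 2 libraries, with 0.5 fragment added. The region at chr3:62976684-62977630, between Gpr149, an orphan receptor gene 372 kb to the left, and Mme 318 kb to the right, held 64 and 74 AT2-like fragments. That is 17.6 and 22.4 FPM (fragments per 1000000 fragments of the class in shared autosomal regions). Transitional-like nuclei had 1 and 13 fragments there, 0.798 and 5.26 FPM, and leukocyte-like nuclei 0 and 11. The ratio over the other classes was 10.7 and 4.64. Mme encodes neprilysin, a membrane peptidase, and its RNA had 270 and 281 CPM in AT2-like nuclei against 82.8 and 86.3 in transitional-like and 120 and 100 in leukocyte-like nuclei. The region at chr19:57938981-57939861 lay inside the body of Atrnl1, an attractin-like gene, 328 kb from its start interval and 13.3 kb from the nearest RefSeq start. It held 61 and 49 AT2-like fragments, 6 and 6 transitional-like, and 0 and 5 leukocyte-like, ratios of 4.63 and 6.43. The region at chr13:113992891-113993827 lay in the body of Arl15, a small GTPase gene, and held 70 and 53 AT2-like, 7 and 8 transitional-like and 0 and 12 leukocyte-like fragments.

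Transitional-like far regions were chosen the same way. At chr5:89747972-89748944, in the body of Adamts3, which encodes a procollagen N-proteinase, transitional-like nuclei had 20 and 35 fragments (16 and 14.2 FPM). This region lay 58.1 kb from the nearest RefSeq start. AT2-like nuclei had 7 and 6 fragments there, 1.92 and 1.82 FPM, and leukocyte-like nuclei 0 and 3. The ratios over the other classes were 7.85 and 8.81. Adamts3 RNA itself was low in every class, at most 8.32 CPM, and was not ordered alike in the libraries. At chr1:186294403-186295326, outside every RefSeq extent, transitional-like nuclei had 24 and 29 fragments and AT2-like nuclei 5 and 5. At chr9:34279590-34280431, also outside every extent, they had 23 and 48, and AT2-like nuclei 13 and 14. Both of these lay beside gene models with at most 9 UMIs in any class of a library.

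The leukocyte-like examples rest on few control fragments. At chr13:75227337-75228271, between Pcsk1 and Ell2, leukocyte-like nuclei had 4 and 21 fragments, 16.9 and 7.77 FPM, and AT2-like nuclei 9 and 9 fragments, 2.47 and 2.72 FPM. This region lay 27.9 kb from the nearest RefSeq start. At chr6:146270889-146271801, in the body of Itpr2, an inositol trisphosphate receptor gene, leukocyte-like nuclei had 6 and 39 fragments and AT2-like nuclei 12 and 17. This region lay 51.6 kb from the nearest RefSeq start. Itpr2 RNA was highest in leukocyte-like nuclei, with 204 and 213 CPM against 113 and 73.1 in AT2-like nuclei. In the library labelled CKO its rate there was 20.8 FPM in T and NK-like, 19.02 in endothelial-like, 15.8 in macrophage and monocyte-like and 5.62 in neutrophil-like nuclei, so it was not particular to leukocytes there. At chr16:78200226-78201212, beside Cxadr, leukocyte-like nuclei had 5 and 20 fragments. Cxadr, the coxsackievirus and adenovirus receptor of epithelial junctions, had less RNA in leukocyte-like nuclei (141 and 129 CPM) than in AT2-like nuclei (198 and 241 CPM).

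**Figure D4:**
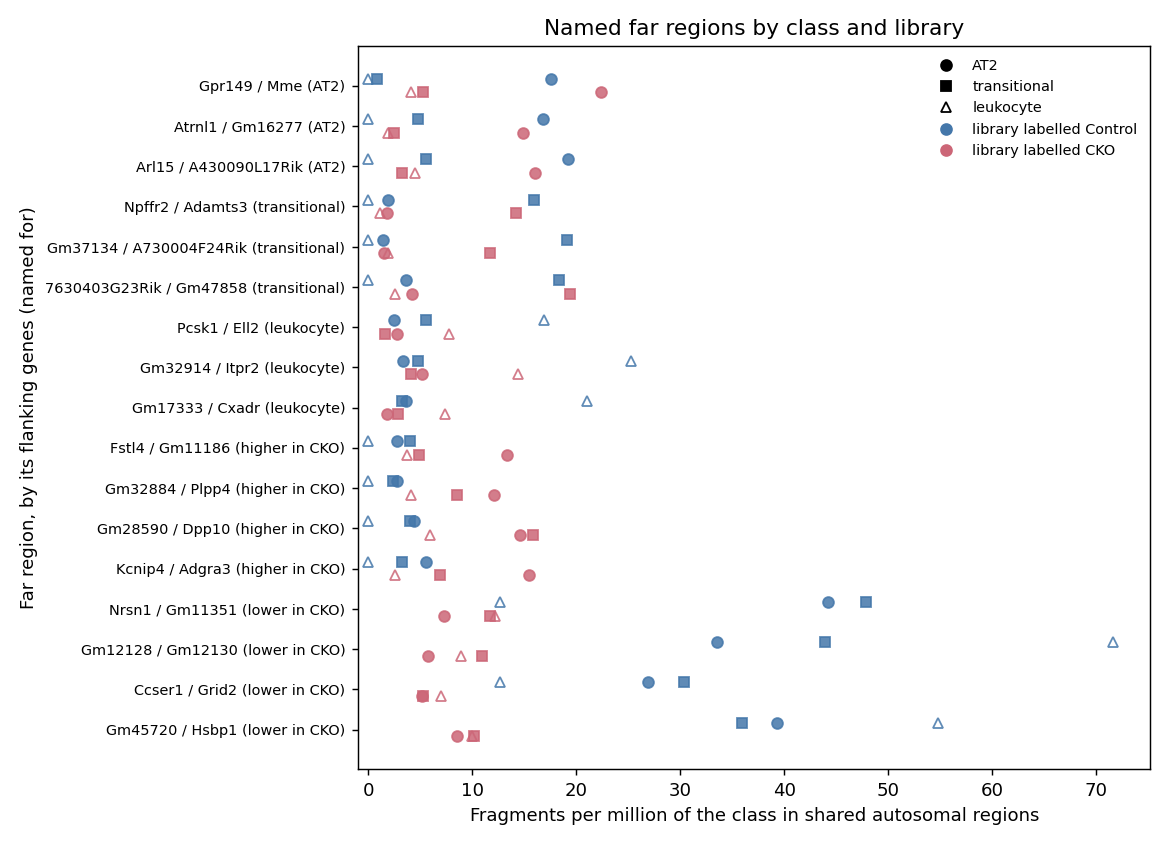
FPM (horizontal axis) in the far regions named for a class or for a difference between libraries (vertical axis, by flanking genes), for AT2-like (circles), transitional-like (squares) and leukocyte-like nuclei (triangles), in the library labelled Control (blue) and the library labelled CKO (red). In the 9 regions named for a class, that class stands to the right of the others in both libraries, and the 4 regions lower in the library labelled CKO have 26.9 to 44.2 FPM in AT2-like nuclei of the control library.

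The region over the Atrnl1 start was even across classes. AT2-like nuclei had 162 and 136 fragments there (44.5 and 41.2 FPM), transitional-like nuclei 51 and 101 (40.7 and 40.9 FPM) and leukocyte-like nuclei 10 and 113 (42.1 and 41.8 FPM). Its AT2-like ratio over the other classes was 1.05 and 1.00, beside 4.63 and 6.43 at the far region in the same gene. Atrnl1 RNA had 767 and 746 CPM in AT2-like, 781 and 736 in transitional-like and 565 and 659 in leukocyte-like nuclei. At the Adamts3 start the transitional-like ratio was 1.39 and 1.01, beside 7.85 and 8.81 at the far region. At the Ell2 start the leukocyte-like ratio was 1.5 and 1.3, beside 4.41 and 3.39 at the far region 479 kb away. Ell2, an elongation factor gene, had 376 and 300 CPM in leukocyte-like nuclei, 275 and 260 in AT2-like and 173 and 189 in transitional-like nuclei. In these 3 pairs the far region, chosen for its ratio, was set apart by class, and in that class the promoter was at most 1.5-fold above the others. For another class, AT2-like nuclei, the Adamts3 start had a ratio of 1.02 and 1.65.

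The RNA of the nearest gene followed the class of a far region less often than at promoters. Of 333 AT2-like far regions, 187 had a nearest gene with at least 20 UMIs in each library. For 59 of these (31.6%) its RNA was highest in AT2-like nuclei in both libraries, compared with 25.8% of all far regions past the minimum. For transitional-like far regions it was 41 of 96 (42.7%, against 32.8%), and for leukocyte-like ones 6 of 15, against 14.3%. Promoter-proximal regions called for a class had 47.3% (against 17.4%) for AT2-like, 47.4% (30.6%) for transitional-like and 60.8% (17.9%) for leukocyte-like nuclei. The nearest gene is a positional label here, and it need not be the gene on which an element acts.

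Of the gene lists for this tissue, transcription factors of the lung epithelium lay nearest to far regions most often. For 14 of 35 listed factors at least 1 far region had no nearer gene, compared with 6.73% of 29142 autosomal genes. They accounted for 77 far regions, of which 7 belong to 2 genes on chromosome 18. No gene of the AT2 identity (16), transitional (16), AP-1 (10) or p53 target (14) lists was the nearest gene of a far region. Of the AT1 identity list 3 of 18 were, and of the leukocyte markers 3 of 50.

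Irx1, an Iroquois homeobox gene, had 16 far regions at 108 to 329 kb, outside its own extent. Summed over them, AT2-like nuclei had 296 and 320 fragments (81.3 and 96.9 FPM), transitional-like nuclei 101 and 241 (80.6 and 97.5 FPM) and leukocyte-like nuclei 8 and 90 (33.7 and 33.3 FPM). Both epithelial classes were thus alike and above the leukocyte class in each library. Irx1 RNA was 95.7 and 174 CPM in AT2-like, 63.4 and 93.1 in transitional-like and 48.1 and 75.5 in leukocyte-like nuclei.

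Nfib and Nfia, nuclear factor I genes with roles in lung maturation, had 14 and 12 far regions, all inside their own long gene bodies. The Nfib regions had 54.1 and 60.6 FPM in AT2-like, 67.8 and 59.9 in transitional-like and 29.5 and 28.5 in leukocyte-like nuclei. The Nfia regions had 79.1 and 85.7, 81.4 and 85.8, and 21.1 and 32.2 FPM in the same order. Nfia RNA was 1009 and 828 CPM in AT2-like, 633 and 559 in transitional-like and 598 and 375 in leukocyte-like nuclei. Both sets of regions were lower in leukocyte-like nuclei, and of the 10 of these 26 regions past the minimum 1 was called for AT2-like and 2 for transitional-like nuclei, beside 8.32% and 5.62% of all shared regions.

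Foxa2, a forkhead pioneer factor, had 7 far regions with 54.9 and 49.95 FPM in AT2-like, 70.2 and 56.7 in transitional-like and 25.3 and 24.8 in leukocyte-like nuclei, and of the 4 past the minimum 2 were called for AT2-like nuclei, beside 8.32% of all shared regions. Tfcp2l1, a grainyhead-like factor gene, had 6, with 15.1 and 23.9 FPM in AT2-like and 19.1 and 18.2 in transitional-like nuclei, too shallow each to pass the minimum. Klf5, a Krüppel-like factor of the alveolar epithelium, had 1 far region at 104 kb, called for transitional-like nuclei with 16 and 20 fragments against 4 and 12 in AT2-like nuclei. The 1 region of Grhl2, a grainyhead factor of epithelial junctions, had 86 and 88 fragments in AT2-like, 30 and 81 in transitional-like and 2 and 23 in leukocyte-like nuclei. Cebpd, Sox9, Foxp2 and Tbx4 had 3 each and Zbtb16 had 1. Sox9 and Tbx4 RNA had at most 8 UMIs in any class of either library.

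Among AT1 genes, Clic5, a chloride channel family gene of the AT1 surface, had 2 far regions with 31.6 and 31.2 FPM in AT2-like and 31.1 and 27.9 in transitional-like nuclei. Its RNA was 45.9 and 141 CPM in AT2-like and 207 and 306 in transitional-like nuclei. The class order of the RNA was therefore not that of its far regions. Vegfa, an endothelial growth factor made by AT1 cells, had 3 far regions and Sema3e 2. Themis, a T cell gene, had 6 far regions with 9.89 and 21.5 FPM in AT2-like, 23.1 and 20.2 in transitional-like and 8.43 and 9.62 in leukocyte-like nuclei, while its RNA was 54.1 and 225 CPM in leukocyte-like nuclei and at most 4.62 CPM elsewhere. The far regions nearest to this leukocyte gene were thus not higher in leukocyte-like nuclei.

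Counted over all genes, Tns3 was the nearest gene of most far regions (33), and Efna5 had 22 and Nav2 20. Tns3 encodes a tensin of focal adhesions and Efna5 an ephrin ligand. Among the gene bodies with at least 28 far regions were Nav2 with 36, Macrod2 with 33, Adamtsl1 with 29 and Ptprn2 with 28. No count per length was made.

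Far regions also came in dense runs. The densest stretch of 200 kb, chr7:49347037-49531911, held 36 far regions in the body of Nav2, a neuron navigator gene. Summed over the run, AT2-like nuclei had 907 and 859 fragments (249 and 260 FPM), transitional-like nuclei 315 and 604 (251 and 244 FPM) and leukocyte-like nuclei 33 and 421 (139 and 156 FPM). In the library labelled CKO the run had 222 FPM in macrophage and monocyte-like and 104 in T and NK-like nuclei. Nav2 RNA was 812 and 586 CPM in AT2-like and 529 and 521 in transitional-like nuclei. The log2 ratio of the library labelled CKO over the control library was 0.06 (−0.07 to 0.20) in AT2-like nuclei. Of its 24 regions past the minimum 4 were called for AT2-like and 3 for transitional-like nuclei, counts too small to set against the 8.32% and 5.62% of all shared regions.

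The run at chr17:5099279-5265473 held 24 far regions in the body of Arid1b, a subunit of the BAF chromatin remodelling complex. Summed over the run, AT2-like nuclei had 187 and 229 FPM, transitional-like nuclei 209.8 and 215 and leukocyte-like nuclei 156 and 186. The log2 ratio between libraries was 0.29 (0.14 to 0.44) in AT2-like and 0.03 (−0.18 to 0.25) in transitional-like nuclei. One region 90.4 kb into it had 63.2 and 60.6 FPM in AT2-like, 56.6 and 60.3 in transitional-like and 37.9 and 61.4 in leukocyte-like nuclei, close to even in the library labelled CKO. Another at 39.3 kb had 44.7 and 33.2 FPM in transitional-like and 11.3 and 12.7 in AT2-like nuclei.

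**Figure D5:**
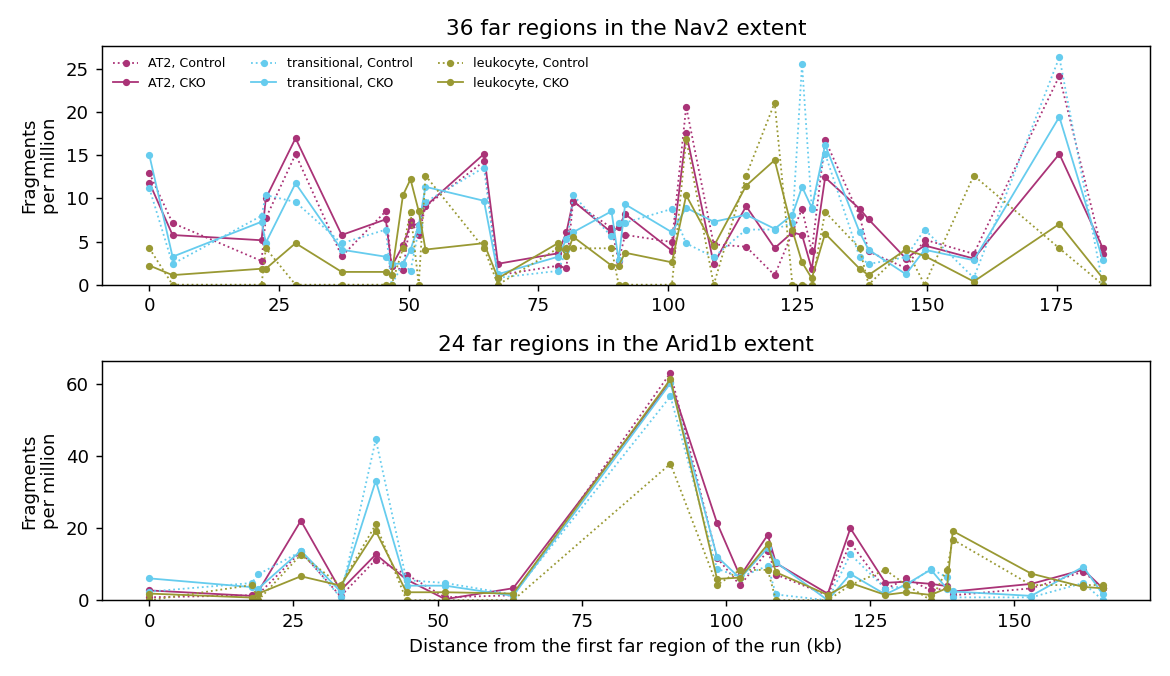
FPM (vertical axes, whose scales differ) in each far region of the Nav2 and Arid1b runs against the distance from the first region of the run (horizontal axis, kb), for AT2-like, transitional-like and leukocyte-like nuclei in the library labelled Control (dotted) and the library labelled CKO (solid). Lines join neighbouring regions for reading only, and the Arid1b run shows a region at 90.4 kb that is near even in the library labelled CKO only, and one higher in transitional-like nuclei at 39.3 kb.

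Between libraries, most shared far regions differed by less than 2-fold in AT2-like nuclei. Far peaks without a counterpart in the other library, 1912 of 8091 and 2322 of 8502, were left out by the rule, so that this says nothing of far peaks in general. Of 2696 far regions with at least 20 fragments, 313 (11.6%) were at least 2-fold higher in the library labelled CKO, beside 10.1% of all shared regions. At least 2-fold lower were 95 (3.52%), beside 2.07% of all shared regions. The share higher was near the background, and the share lower was above it. In transitional-like nuclei 120 of 1570 far regions (7.64%, beside 6.72%) were higher and 85 (5.41%, beside 2.56%) lower. The calls depended on depth. Among far regions with 20 to 39 fragments 18.5% were higher and 3.48% lower in AT2-like nuclei, beside 20.6% and 2.71% of all shared regions there. This range held 244 of the 313 higher far regions. Among far regions with 160 to 319 fragments 0 of 131 were higher and 6 (4.58%) lower, beside 0.177% and 0.834% of all shared regions at that depth. The AT2-like nuclei compared come from different clusters, as given above, so genotype, cell state and library cannot be told apart.

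The 4 regions furthest below the control library were high there in both epithelial classes, and 2 of these 4 in leukocyte-like nuclei too. At chr13:25691927-25692907, between Nrsn1 and Gm11351 and outside every extent, AT2-like nuclei had 161 and 24 fragments, 44.2 and 7.27 FPM (log2 ratio −2.61, −3.29 to −1.98). This region lay 11.3 kb from a RefSeq start. Transitional-like nuclei had 60 and 29 fragments there, 47.9 and 11.7 FPM, and leukocyte-like nuclei 3 and 33, 12.6 and 12.2 FPM. At chr11:37815075-37815975 AT2-like nuclei had 122 and 19 fragments, 33.5 and 5.75 FPM (log2 ratio −2.54), and transitional-like nuclei 55 and 27. Leukocyte-like nuclei had 17 and 24 there, 71.6 and 8.88 FPM, a log2 ratio of −3.01 (−3.97 to −2.02). At chr6:62818607-62819507, which lay 1.04 kb from a RefSeq start, AT2-like nuclei had 98 and 17 fragments (−2.39) and leukocyte-like nuclei 3 and 19 (−0.85, −2.61 to 1.55). At chr8:119216586-119217485, in the body of the cadherin gene Cdh13, AT2-like nuclei had 143 and 28, 39.3 and 8.48 FPM (−2.21). Leukocyte-like nuclei had 13 and 27 there, 54.8 and 9.99 FPM (−2.46, −3.46 to −1.38). Leukocyte-like nuclei thus had the same direction with an interval below 0 at 2 of these 4 regions, and 3 control fragments at each of the others.

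Fragments in peaks of the mitochondrial chromosome moved with this difference. Per 1000000 fragments in all peaks they numbered 2361 and 320 in AT2-like nuclei, and 2519 and 281 in transitional-like nuclei. In leukocyte-like nuclei they numbered 1681 and 230, so the libraries differed in this way in every class compared. Within AT2-like nuclei of the control library, the 95 lower regions had 1731 FPM in the 740 nuclei with more mitochondrial-peak fragments and 899 FPM in the other 741, a ratio of 1.93. The ratio was 1.12 over all far regions and 1.07 over the 313 higher regions. The 740 nuclei were the shallower group, with 31887 fragments in all far regions against 65423 in the other 741. The part of depth in these ratios was not tested. In the library labelled CKO the ratio for the 95 regions was 1.23. The part of mitochondrial fragments in the lower regions was not tested.

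The 4 regions furthest above the control library were shallower. At chr11:52875816-52876734, in the body of Fstl4, a follistatin-like gene, AT2-like nuclei had 10 and 44 fragments (log2 ratio 2.28, 1.27 to 3.43). Transitional-like nuclei had 5 and 12 there (0.28, −1.32 to 2.14). Fstl4 RNA was 51.9 and 32.1 CPM in AT2-like nuclei. At chr7:128949788-128950697, beside Plpp4, they had 10 and 40 (2.14, 1.12 to 3.31), and transitional-like nuclei 3 and 21. At chr1:122356731-122357654 AT2-like nuclei had 16 and 48 (1.73, 0.88 to 2.64) and transitional-like nuclei 5 and 39 (1.98, 0.64 to 3.69), with the nearest gene model Gm28590 152 kb away and Dpp10, a dipeptidyl peptidase family gene, 1690 kb away. At chr5:49640864-49641808, beside Kcnip4, they had 20 and 51 (1.49, 0.72 to 2.32). At the regions beside Plpp4 and Dpp10 transitional-like nuclei had the same direction with an interval above 0.

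The 3 far regions with the most counts were not 2-fold apart between classes in both libraries. At chr13:107889899-107890742, AT2-like nuclei had 469 and 298 fragments (129 and 90.2 FPM), transitional-like nuclei 159 and 229 (127 and 92.7 FPM) and leukocyte-like nuclei 46 and 372 (194 and 138 FPM). It lay 0.257 kb from a RefSeq start that the files' gene set does not list. At chr12:3109496-3110434 AT2-like nuclei had 294 and 310 fragments and leukocyte-like nuclei 17 and 394. At chr8:20121928-20122779, which lay 13.9 kb from a RefSeq start, AT2-like nuclei had 354 and 276, and leukocyte-like nuclei 30 and 300. Their ratios of leukocyte-like nuclei over the other classes were 1.53 and 1.5, 0.87 and 1.53, and 1.39 and 1.29. Without the 62 far regions with most counts the AT2-like shares of counts fell to 2.42% and 2.77%, from the 2.70% and 3.02% above.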

How the data were processed

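Per the labels, nuclei of sorted cells went through the 10x Multiome kit. Per the submitters' processing notes, Cell Ranger ARC 2.0.1, Seurat 4.1.0 and Signac 1.6.0 were used. How peaks were called is not given in the sources used here. The deposited matrices hold whole-number counts, as the authors left them with no normalization: UMIs for 31053 genes and transposition counts in peaks, of which 81.6% and 84.6% were even. Gene positions match GRCm38, while the notes name GRCm39 too. Peak depths were 47307986 and 37365247 counts.

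Barcodes with 500 to 25000 UMIs, at least 300 genes, under 20% mitochondrial UMIs and 1000 to 100000 peak counts were kept. Scrublet called 6 and 0 doublets, so doublets were in effect not removed. Nuclei were clustered on 2000 variable genes and 30 components (scanpy 1.11.5, Leiden resolution 0.6) and named by marker lists, at least 3 markers detected. Fragments were estimated as counts per nucleus and peak divided by 2, rounded up. Class rates are per 1000000 fragments in shared autosomal regions. Named regions were the 3 per class with the largest smaller-of-both-libraries ratio, 4 for each direction between libraries by the interval bound nearest 0 (at least 50 fragments), the 3 with most counts, and the 3 densest runs within 200 kb; genes were those flanking these regions and list members nearest to a far region. Regions of chromosome 18 were counted and not named, and 1 of the dense runs is not reported here. Intervals are Clopper-Pearson or conditional binomial. Scripts were tested on simulated data. The members and lists were chosen with earlier results of these data known.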

Additional observations from a re-analysis of the deposited data

How the results depend on the processing

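No paired analysis was possible because each genotype is 1 joint library. Of 126 recomputed values 71 moved by less than 1.5 times or the counting interval, 55 moved by more and 0 changed direction. Only the differences in specificity could change direction, because counts and shares cannot be negative. Joining transitional-like and AT1-like nuclei could change nothing, because the main setting named no AT1-like class, and its values are among the 71. Calls are given with their share of far regions past the minimum, whose number also changed. AT2-like calls (333, 18.5%) were 534 (10.3%) with no mitochondrial limit, 195 (10.9%) at Leiden resolution 1.0 and 536 (16.8%) with counts as deposited. They were 124 (20.3%) at a minimum of 50 fragments and 645 (35.8%) at 1.5-fold. Transitional-like calls (174, 9.65%) were 602 (11.6%) with no mitochondrial limit and 53 (2.94%) with no doublet removal, where an AT1-like class was named. They were 398 (12.5%) with counts, 32 (5.25%) at 50 fragments and 373 (20.7%) at 1.5-fold. Leukocyte-like calls (20, 1.11%) were 214 (4.11%) with no mitochondrial limit, 13 (0.963%) without the 5% of nuclei with most peak counts and 59 (1.85%) with counts. They were 13 (0.721%) scaled to promoter-proximal regions, 2 (0.328%) at 50 fragments, 39 (2.16%) at 1.5-fold and 12 (0.896%) without the shallow AT2-like cluster. Regions higher in the library labelled CKO (313) numbered 712 with no mitochondrial limit, 845 with counts, 39 at 50 fragments and 739 at 1.5-fold, and lower ones (95) 200 with counts, 37 at 50 fragments and 272 at 1.5-fold. The set (6152) held 15797 regions at over 50 kb, 1880 at over 200 kb and 743 against RefSeq.

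The AT2-like share for CKO (3.02%) was 3.13% with no mitochondrial limit, 3.01% with no doublet removal, 2.97% without the deepest 5% of nuclei, 2.77% without the 1% of far regions with most counts and 2.99% by fragments. For Control (2.70%) it was 2.95% with no mitochondrial limit, 2.42% without those regions, 2.67% by fragments and 2.76% without the shallow cluster. The far minus promoter-proximal difference in median specificity for CKO (0.0333) was 0.0207 at Leiden 1.0, 0.00839 at 20 to 39 fragments and 0.0184 at 40 to 79. For Control (0.0729) it was 0.0359 at Leiden 1.0, 0.131 with counts and 0.0354 at 40 to 79 fragments. The causes were not tested, beyond fewer regions under a higher minimum and more under a lower fold. The fragment-based shares, the set without chromosome 18 and the set without the shallow cluster were added after seeing the data. Of far regions past the minimum, 107 in Control and 32 in CKO had a 2-fold leukocyte-like rate in that library alone or in both, and the few leukocyte-like nuclei of Control (103) make its rates imprecise.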
